A study of Arabidopsis thaliana with 12 samples.

Results

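The genes described here encode the machinery that degrades messenger RNA in Arabidopsis thaliana, and the quantity measured is the small RNA that maps to each of them. A set of 34 was picked by locus identifier from known function, with earlier results of these data known. All 34 were found among the 30926 genes of the count table, and 33 are described. The 33 are 3 XRN exonuclease genes, 3 Ski complex genes, 11 decapping genes, 8 genes of the exosome and of 3′ decay, 5 deadenylation genes and 3 genes of nonsense-mediated decay.

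Messenger RNA decay usually starts with removal of the poly(A) tail by the CCR4, CAF1 and PARN deadenylases. The decapping complex then removes the 5′ cap, and the cytoplasmic exonuclease EIN5, also called XRN4, degrades the body from the 5′ end. The exosome, fed in the cytoplasm by the Ski complex, degrades from the 3′ end. Nonsense-mediated decay marks transcripts with an early stop codon for the same routes. In plants, an RNA that escapes decay can be copied by the RNA-dependent RNA polymerase RDR6 into double-stranded RNA, which Dicer-like enzymes cut into small interfering RNA (siRNA).

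RNA shorter than 200 nt was sequenced from the aerial tissue of plants aged 18 days, with 3 libraries for each of 4 genotypes. Col-0 is the wild type. The double mutant ein5-1 ski2-3 carries mutations in EIN5 and SKI2 and so lacks both a 5′ and a 3′ route of cytoplasmic decay, rdr6-11 is mutated in RDR6, and the plants with all 3 mutations are the triple mutant rdr6-11 ein5-1 ski2-3. The labels give 1 allele for each gene and no rescued line, so an effect of the allele and an effect of its background cannot be told apart.

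CAF1a and CAF1b, the genes with the most small RNA in ein5-1 ski2-3, are close copies, so part of their small RNA cannot be assigned to one of them. Of the 21-base words in the exons of CAF1a, 34 of 1319 (2.58%) occur elsewhere in the genome, and 28 of 1303 (2.15%) do so for CAF1b. The most similar 60-base coding windows of the pair are identical at 57 of 60 bases and share a run of 32 bases, longer than a plant siRNA. The capitals mark the differing bases. Sequences and positions were taken from the RefSeq annotation of TAIR10.1 on the minus strand, chr3:15952306-15952365 for CAF1a and chr5:7365698-7365757 for CAF1b, both inside the single exon of the gene.
CAF1a: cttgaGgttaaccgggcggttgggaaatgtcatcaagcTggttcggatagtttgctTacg
CAF1b: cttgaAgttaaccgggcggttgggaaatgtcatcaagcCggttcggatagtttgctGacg
The neighbouring decapping genes VCS and VCR are more alike still. They share 446 words of 21 bases, and the following 60-base window is the same in both, at chr3:4307554-4307613 in VCS and chr3:4300924-4300983 in VCR, plus strand of TAIR10.1. It is shown because no read inside it can be assigned to either gene.
VCS and VCR: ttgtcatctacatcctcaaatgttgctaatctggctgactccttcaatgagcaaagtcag
RRP45A and CER7 share 128 such words, RH6 and RH12 share 64, and XRN2 and XRN3 share 20. Values of these pairs are uncertain to that extent, because the rule for reads with several matches is not given in the sources used here. In all, 13 members overlap a neighbouring locus on the opposite strand, among them RH6 and RH8, and as strand is not given either, their reads cannot be told apart from those of the neighbour. CAF1a, CAF1b, DCP5, UPF1 and VCS overlap no other locus.

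The libraries held 2358724 to 2909767 counts, and the median gene had 1 to 3, so the decay genes were read at low depth. Summed over all 12 libraries the members had 11 (RRP41 and PARN) to 328 counts (CAF1a), with a median of 45. Replicates 1 and 2 of ein5-1 ski2-3 did not differ beyond sampling noise over protein-coding genes (mean chi-square 1.00 per gene over 3778 genes, where noise alone gives about 1). Over all genes the pair was at 1.054, above the noise, against 1.25 to 4.93 for every other pair of one genotype. The pair was summed and counted as 1 sample, which leaves n = 2 in that genotype and n = 3 in the others. Replicates 2 and 3 of Col-0 stood at 1.02 over protein-coding genes but at 1.60 over all genes and were kept apart. With all 12 libraries apart, edgeR called the same members in each comparison. Protein-coding genes took 6.36 to 6.47% of the counts in Col-0, 10.7 to 11.7% in ein5-1 ski2-3, 6.68 to 6.73% in rdr6-11, then 7.41 to 7.51% in the triple mutant. The counts on RDR6 itself, 0 to 5 per library, were too few to check the rdr6-11 label, but the summed counts on the RDR6-dependent loci TAS1A, TAS1B, TAS1C and TAS2 were 7628 to 9349 in Col-0, 12476 to 16151 in ein5-1 ski2-3, 112 to 123 in rdr6-11, and then 204 to 262 in the triple mutant. Summed counts of 5 leaf and shoot marker genes were 1459 to 2104 per library, against 0 to 2 for 5 root marker genes.

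Together the 33 genes carried more small RNA in ein5-1 ski2-3 than in any other genotype. Their summed level, as CPM (counts scaled to a common library total), was 43.9 ± 3.22 in Col-0 (SD, n = 3), 112.9 ± 6.03 in ein5-1 ski2-3 (n = 2), 49.9 ± 2.31 in rdr6-11 (n = 3) and 67.5 ± 3.49 in the triple mutant (n = 3). The ranges over libraries were 41.5 to 47.6, 108.6 to 121.3, 47.3 to 51.7 and 64.03 to 71.02, so ein5-1 ski2-3 and the triple mutant overlapped with no other genotype. On a log2 scale the sum differed by 1.36 between ein5-1 ski2-3 and Col-0, against 0.56 with TMM-scaled counts, and by 0.19 between rdr6-11 and Col-0, against -0.28 with TMM-scaled counts. The ratio of ein5-1 ski2-3 to Col-0 was 2.57 for the members and 1.75 for all protein-coding genes. In these bulk samples, fewer cells with a given small RNA and less of it per cell cannot be told apart.

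The ratio was largest for 2 of the 6 functional groups. Deadenylation genes went from 8.09 ± 1.56 CPM in Col-0 to 43.6 ± 0.066 in ein5-1 ski2-3, a ratio of 5.39, where the small SD is over 2 samples and the libraries ran from 38.1 to 49.2. They stood at 8.20 ± 0.498 in rdr6-11 and 12.2 ± 1.44 in the triple mutant. Decapping genes stood at 17.4 ± 2.11, 41.5 ± 6.22, 23.1 ± 2.22 and 30.3 ± 2.50 in the same order, a ratio of 2.39 for ein5-1 ski2-3 over Col-0. The same ratio was 1.84 for the exosome genes, 1.55 for the XRN family, 1.31 for the Ski complex and 1.18 for nonsense-mediated decay. Of 3 genes singled out after their values were seen, CAF1a, CAF1b and DCP5, the sum went from 8.62 to 54.3, a ratio of 6.30. The other 30 members went from 35.3 to 58.6, a ratio of 1.66, against the 1.75 of all protein-coding genes. No test was made on these sums, which are not TMM-scaled.

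**Figure D1:**
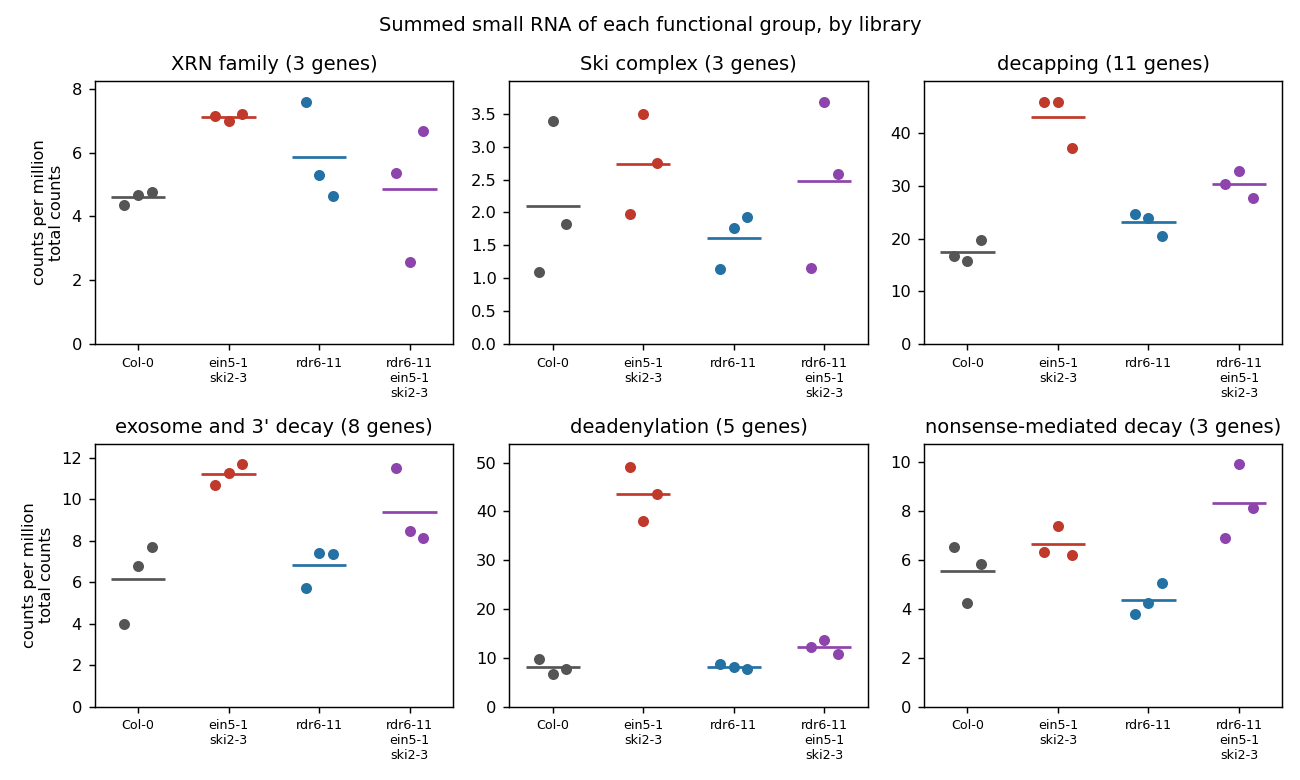
Small RNA of each functional group in CPM of total counts, summed over its genes, 1 point for each library and a line at the mean of the 3 libraries of a genotype. The deadenylation sum, carried by CAF1a and CAF1b, separates ein5-1 ski2-3 (38.1 to 49.2) from every other library (at most 13.6). The Ski complex genotypes overlap, except that ein5-1 ski2-3 (1.98 to 3.49) lies just above rdr6-11 (1.14 to 1.94).

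Single genes were tested with edgeR's quasi-likelihood test on TMM-scaled counts, with p-values adjusted by the Benjamini-Hochberg method over all 7219 genes that passed a filter on low counts and a call at an adjusted p under 0.05. TMM scaling sets libraries to a common level for most genes, and levels on that scale are called TMM CPM or, for single genes below, CPM. Of the 33 members, 7 passed the filter: CAF1a, CAF1b, DCP5, VCS, RH6, RH12 and UPF1. CAF1b passed through the ein5-1 ski2-3 samples alone, RH6 and RH12 through samples of ein5-1 ski2-3 and the triple mutant, and UPF1 through Col-0 and the triple mutant. These genes entered through groups where they were high, so counts over the 7 are a description. The other 26 were fitted with no filter, among 29938 genes with at least 1 count.

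In ein5-1 ski2-3 against Col-0, 3 of the 7 members tested were higher and 1 was lower, beside 30.5% higher and 18.8% lower among all genes tested. Taken over both directions, 4 of 7 is near the 49.3% of the background. With no filter, 4 of 33 were higher and 0 lower, beside 8.79% and 3.62%. The median change of the 33 members in that fit was 0.02 on the log2 scale, below the 0.32 of all 29938 genes. Lack of overlap between the samples of 2 genotypes was common among the 7219 genes tested, in TMM CPM. It held for 40.3% higher and 24.1% lower in ein5-1 ski2-3 against Col-0. In the triple mutant it held for 26.9% and 27.4% against rdr6-11, and for 20.3% and 37.2% against ein5-1 ski2-3.

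**Figure D2:**
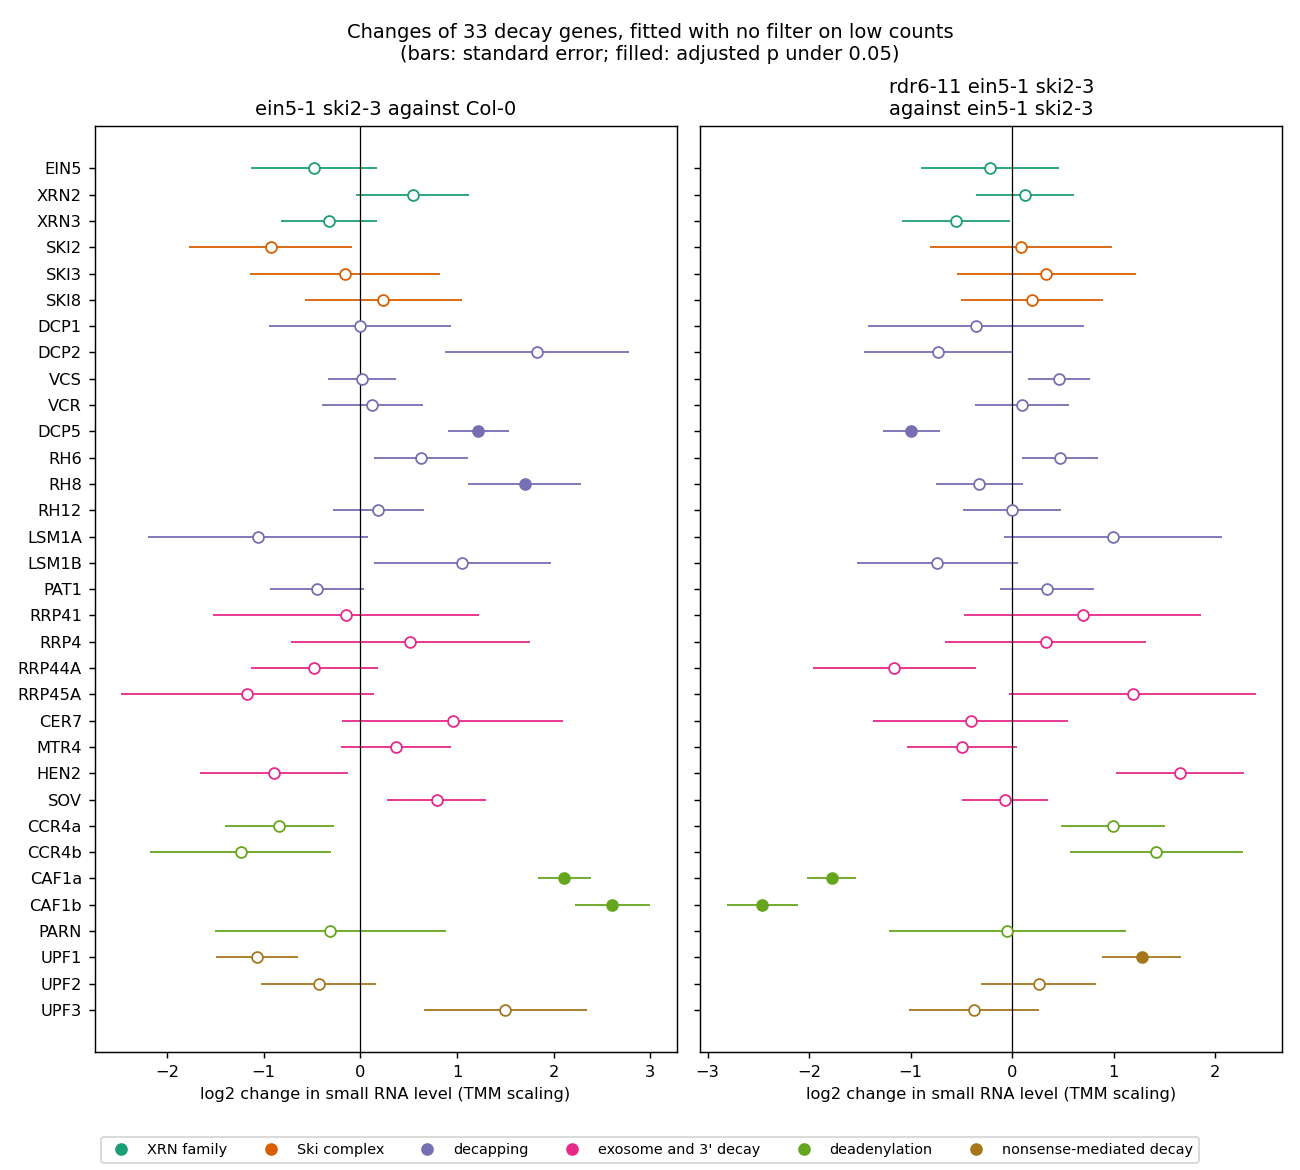
Log2 change of small RNA on each of the 33 decay genes in the fit with no filter, ein5-1 ski2-3 against Col-0 on the left and the triple mutant against ein5-1 ski2-3 on the right. Points are estimates, bars standard errors and filled points adjusted p under 0.05, and CAF1a and CAF1b lie farthest from 0 among the called genes in both panels with opposite signs.

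The deadenylation genes remove the poly(A) tail. CAF1a (AT3G44260), the catalytic subunit that works with CCR4 on the CCR4-NOT scaffold, lies at chr3:15952008-15953346 as 1 exon of 1339 bases on the minus strand. It had 11, 8 and 10 counts in the Col-0 libraries, 77, 62 and 74 in ein5-1 ski2-3, 12, 15 and 11 in rdr6-11, and then 14, 19 and 15 in the triple mutant. Every ein5-1 ski2-3 library was above every other library, and the remaining genotypes lay close together. In CPM the level was 4.79 ± 0.454 in Col-0, 19.6 ± 0.403 in ein5-1 ski2-3, 4.42 ± 0.560 in rdr6-11 and 5.96 ± 0.896 in the triple mutant. CAF1a rose in ein5-1 ski2-3 by 2.02 on the log2 scale over Col-0 (SE 0.247, adjusted p = 1.15e-09 by edgeR).

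CAF1b (AT5G22250) is the second CAF1 deadenylase and, like CAF1a, a stress-induced gene. It lies at chr5:7365477-7366799 on the minus strand, again as 1 exon, of 1323 bases. Its counts were 7, 2 and 2 in Col-0, 41, 27 and 46 in ein5-1 ski2-3, 2, 3 and 1 in rdr6-11, and then 7, 4 and 5 in the triple mutant. The ein5-1 ski2-3 libraries again stood above all others, while rdr6-11 was low and overlapped with Col-0. The level was 1.798 ± 1.35 CPM in Col-0, 10.9 ± 2.06 in ein5-1 ski2-3, 0.693 ± 0.325 in rdr6-11 and 2.00 ± 0.602 in the triple mutant. In the fit with no filter, which did not select it, CAF1b rose by 2.61 over Col-0 (SE 0.391, adjusted p = 1.02e-09 by edgeR).

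Most of this small RNA was absent from the triple mutant. Against ein5-1 ski2-3, CAF1a fell in the triple mutant by 1.70 (SE 0.217, adjusted p = 7.40e-09) and, with no filter, CAF1b fell by 2.46 (SE 0.350, adjusted p = 2.13e-10). Against Col-0 the triple mutant differed by 0.31 for CAF1a (SE 0.318, adjusted p = 0.604) and by 0.13 for CAF1b (SE 0.555, adjusted p = 0.920). At these counts both leave room for a difference, and a larger one for CAF1b, which ran from -0.21 to 0.95 with a library left out. In the authors' deposited table the ratio of ein5-1 ski2-3 to Col-0 was 3.95 for CAF1a (adjusted p = 2.15e-07) and 5.65 for CAF1b (adjusted p = 6.35e-05). The same authors' deposited table gave ratios of ein5-1 ski2-3 to the triple mutant of 3.19 and 5.09 (adjusted p = 1.87e-06 and 3.63e-05), and no other member was called in it, while the table as a whole had 1333 higher and 976 lower genes over Col-0 and 891 and 568 over the triple mutant.

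The effect of losing RDR6 in ein5-1 ski2-3 minus that in wild type, the interaction, was -1.59 for CAF1a (SE 0.405, adjusted p = 0.000984). For CAF1b it was -1.05 (SE 0.873, adjusted p = 0.313) and not called. CAF1b alone stood at -1.33 in rdr6-11 against Col-0 (SE 0.687, adjusted p = 0.126), on a total of 6 counts against 11. Without replicate 1 of Col-0 that value was -0.51 and the interaction -1.88, and over all libraries left out in turn they ran from -1.67 to -0.51 and from -1.88 to -0.53. Between the triple mutant and rdr6-11 it stood at 1.46 (adjusted p = 0.0537), a difference called without replicate 1 of Col-0 (1.46) or replicate 2 of the triple mutant (1.64). Over the 7 members tested, 1 interaction was positive and 2 were negative, beside 19.9% and 31.7% of all genes.

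The other deadenylases did not share the pattern of counts. CCR4a (AT3G58560), the partner catalytic subunit, had 7, 4 and 4 counts in Col-0, 5, 6 and 3 in ein5-1 ski2-3, 7, 3 and 5 in rdr6-11, and then 6, 10 and 6 in the triple mutant. CCR4b (AT3G58580), its paralogue, had 1, 1 and 4, then 0, 1 and 3, then 2, 1 and 3, and 3 in each triple mutant library. PARN (AT1G55870), the poly(A)-specific ribonuclease, had 0 to 2 counts in every library. In raw counts the genotypes overlapped for all 3 genes. In CPM CCR4a was 1.17 ± 0.511 in ein5-1 ski2-3, below every sample of Col-0 (2.48 ± 0.779) and the triple mutant (2.73 ± 0.819). There CCR4b lay below the triple mutant and PARN below Col-0, on few counts. Of all 7219 genes tested, 24.1% were lower in ein5-1 ski2-3 than in Col-0 with no overlap, and 20.3% were higher in the triple mutant than in ein5-1 ski2-3. With no filter none of the 3 genes was called in any comparison.

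**Figure D3:**
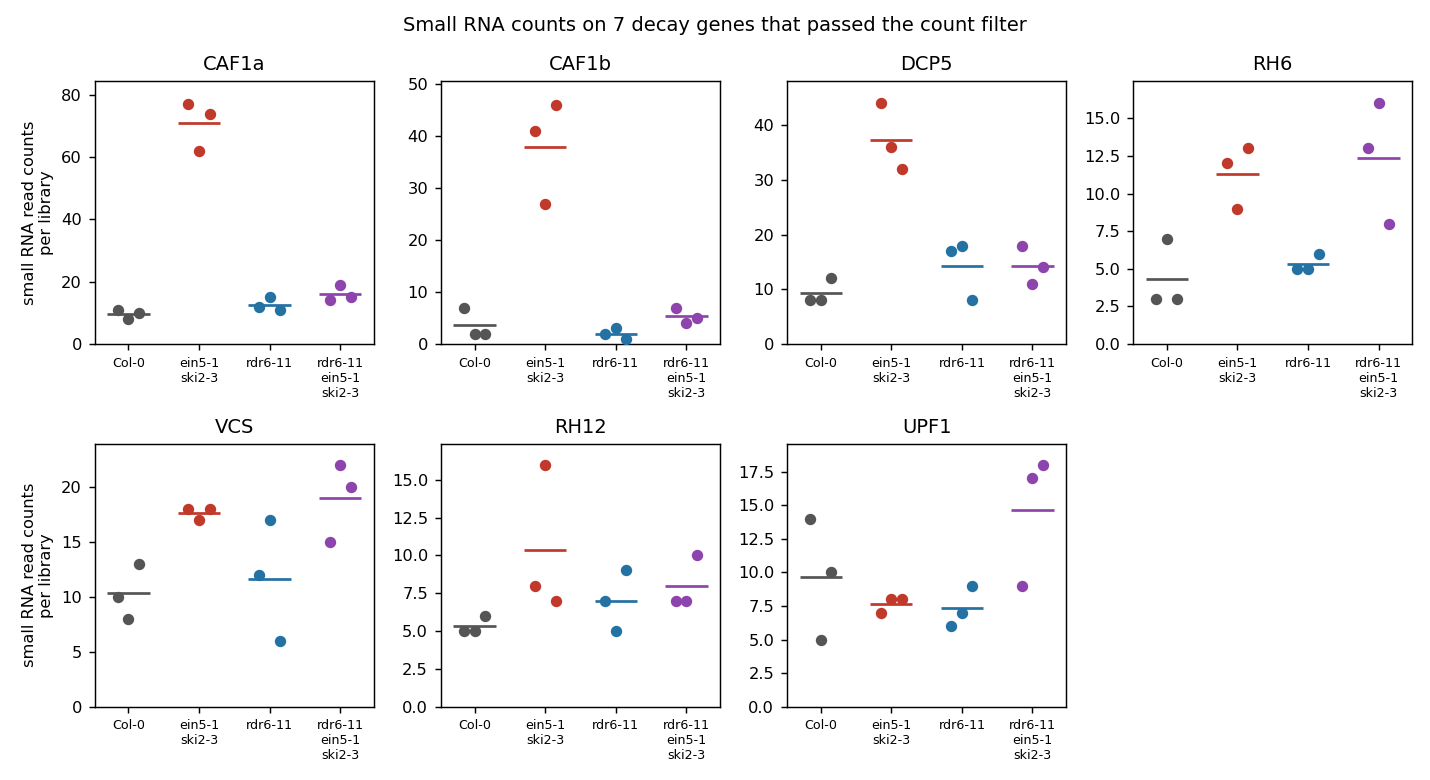
Raw small RNA counts per library of 7 decay genes that passed the filter, by genotype, with 1 point for each library. CAF1a (62 to 77 counts), CAF1b (27 to 46) and DCP5 (32 to 44) are higher in ein5-1 ski2-3 than in every other library. UPF1 reaches 18 counts in the triple mutant. In TMM CPM, CAF1a, CAF1b and DCP5 in ein5-1 ski2-3 also lie above every Col-0 sample. The same holds for 40.3% of all 7219 genes tested.

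Among the decapping genes, DCP5 (AT1G26110) showed the clearest difference. DCP5 binds RNA and promotes decapping and P-body formation, and lies at chr1:9024341-9027955 on the minus strand with 8 exons. Its counts were 8, 8 and 12 in Col-0, 44, 36 and 32 in ein5-1 ski2-3, 17, 18 and 8 in rdr6-11, and then 18, 11 and 14 in the triple mutant. The ein5-1 ski2-3 libraries stood above all others, and Col-0 and rdr6-11 overlapped. The level was 4.62 ± 0.924 CPM in Col-0, 9.86 ± 1.78 in ein5-1 ski2-3, 4.99 ± 1.84 in rdr6-11 and 5.36 ± 1.39 in the triple mutant.

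DCP5 rose by 1.12 in ein5-1 ski2-3 over Col-0 (SE 0.300, adjusted p = 0.00155 by edgeR) and fell by 0.92 in the triple mutant against ein5-1 ski2-3 (SE 0.268, adjusted p = 0.00502). Its interaction of -1.03 (SE 0.445, adjusted p = 0.0477) was close to the threshold and was lost in 12 of 19 alternative settings, among them those without replicate 1 (-0.91) or 2 (-0.9999) of Col-0, replicate 1 (-0.89) or 3 (-0.92) of ein5-1 ski2-3, replicate 1 (-0.90) or 2 (-0.70) of rdr6-11 and replicate 2 (-0.86) or 3 (-1.01) of the triple mutant. By DESeq2 neither the rise over Col-0 (0.97, adjusted p = 0.0739) nor the fall in the triple mutant (-0.78, adjusted p = 0.172) was called. Without replicates 1 and 2 of ein5-1 ski2-3 the values were 0.67 and -0.49 and not called either, but that fit has 1 library of the genotype, assumed to vary like the other groups. The authors' deposited table gave a ratio of 2.15 for ein5-1 ski2-3 over Col-0 with an adjusted p of 0.0569.

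RH6 (AT2G45810), RH8 (AT4G00660) and RH12 (AT3G61240) are DEAD-box RNA helicases of the DHH1 type that act in decapping and P-bodies. RH6 had 3, 7 and 3 counts in Col-0, 12, 9 and 13 in ein5-1 ski2-3, 5, 5 and 6 in rdr6-11, and then 13, 16 and 8 in the triple mutant. In raw counts both genotypes without EIN5 and SKI2 were above both genotypes that keep them. By total counts 61.6% of all genes tested were called higher in ein5-1 ski2-3 than in Col-0. In CPM the levels were 2.23 ± 1.39, 3.21 ± 0.407, 1.87 ± 0.249 and 4.598 ± 1.47 in the same order, and Col-0 and ein5-1 ski2-3 overlapped. RH6 rose by 1.28 in the triple mutant against rdr6-11 (SE 0.425, adjusted p = 0.0123), and stood at 0.53 in ein5-1 ski2-3 against Col-0 (adjusted p = 0.356) and at 1.08 in the triple mutant against Col-0 (adjusted p = 0.0948). The rise over rdr6-11 was not called with no filter (1.18, adjusted p = 0.0675), by DESeq2 (1.297, adjusted p = 0.0728) or without replicate 2 of the triple mutant (1.07). RH6 overlaps 1 locus on the opposite strand, and the part of that locus in these counts was not tested.

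RH8 failed the filter with 1, 1 and 4 counts in Col-0, 11, 14 and 9 in ein5-1 ski2-3, 5, 4 and 4 in rdr6-11, and then 7, 6 and 8 in the triple mutant. In raw counts the ein5-1 ski2-3 libraries were highest and the triple mutant lay between them and the rest. In CPM ein5-1 ski2-3 (2.95 ± 0.746) and the triple mutant (2.61 ± 0.392) overlapped. With no filter RH8 rose by 1.70 in ein5-1 ski2-3 over Col-0 (SE 0.589, adjusted p = 0.0343 by edgeR), and it stood at -0.32 in the triple mutant against ein5-1 ski2-3 (adjusted p = 0.764). RH12 had 5, 5 and 6 counts in Col-0, 8, 16 and 7 in ein5-1 ski2-3, 7, 5 and 9 in rdr6-11, and then 7, 7 and 10 in the triple mutant, and was called in no comparison.

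VCS (AT3G13300), the scaffold of the decapping complex, had 10, 8 and 13 counts in Col-0, 18, 17 and 18 in ein5-1 ski2-3, 12, 17 and 6 in rdr6-11, and then 15, 22 and 20 in the triple mutant. Its raw counts were higher in both genotypes without EIN5 and SKI2 than in Col-0, but rdr6-11 overlapped with Col-0 and, at 17, with ein5-1 ski2-3. On the TMM scale VCS did not follow the raw counts in ein5-1 ski2-3, with a change of -0.08 over Col-0 (adjusted p = 0.857), while scaling by total counts gave 0.73 (adjusted p = 0.0482). VCS rose by 0.79 in the triple mutant against rdr6-11 (SE 0.309, adjusted p = 0.0328), a call lost without replicate 1 (0.81) or 3 (0.48) of rdr6-11 and without replicate 2 (0.69) or 3 (0.75) of the triple mutant. It was also lost by total counts (0.70, adjusted p = 0.0632) and with no filter (0.69, adjusted p = 0.222). VCR (AT3G13290), its neighbouring paralogue, had 5, 3 and 5, then 11, 6 and 7, then 6, 5 and 5, and then 4, 12 and 4 counts. It was not called, and 10.1% of its 21-base words occur elsewhere in the genome.

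DCP1 (AT1G08370), the activator of decapping, had 0 to 3 counts in every library. DCP2 (AT5G13570), the enzyme that cuts the cap, had 1, 0 and 1 counts in Col-0, 1, 6 and 6 in ein5-1 ski2-3, 3, 2 and 2 in rdr6-11, and then 2, 3 and 1 in the triple mutant. PAT1 (AT1G79090), a decapping activator, had 10, 1 and 7, then 7, 6 and 9, then 6, 7 and 8, and then 8, 7 and 7 counts. LSM1A (AT1G19120) and LSM1B (AT3G14080), subunits of the ring that binds shortened tails, had 0 to 3 and 0 to 7 counts per library. In raw counts DCP2 in rdr6-11 (2 to 3 counts) lay above Col-0 (0 to 1), and the genotypes otherwise overlapped for the 5 genes. DCP2 is not among the 7219 genes tested, of which 26% lay higher in rdr6-11 than in Col-0 with no overlap, in TMM-scaled counts. None of the 5 genes was called with no filter, so no difference was detected at this depth.

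The exonucleases of the XRN family, among them a gene mutated here, carried little small RNA. EIN5 (AT1G54490) had 5, 1 and 4 counts in Col-0, 3, 5 and 4 in ein5-1 ski2-3, 7, 6 and 2 in rdr6-11, and then 4, 0 and 4 in the triple mutant. Mutant and wild-type libraries overlapped, and as these are small RNA counts, they check neither the allele nor the level of the messenger RNA. XRN2 (AT5G42540), a nuclear exonuclease, had 3 in each Col-0 library, 4, 6 and 12 in ein5-1 ski2-3, 6, 6 and 3 in rdr6-11, and then 4, 6 and 9 in the triple mutant. XRN3 (AT1G75660), its nuclear paralogue, had 4, 7 and 6, then 11, 7 and 5, then 7, 3 and 7, and then 6, 1 and 5 counts. No member of this family was called in any comparison.

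The Ski complex unwinds RNA and threads it into the cytoplasmic exosome. SKI2 (AT3G46960), its helicase and the second gene mutated in the decay mutants, had 1, 2 and 4 counts in Col-0, 2 in each ein5-1 ski2-3 library, 1, 3 and 1 in rdr6-11, and then 1, 4 and 0 in the triple mutant. SKI3 (AT1G76630), the scaffold subunit, had 0 to 5 counts and SKI8 (AT4G29830), a WD-repeat subunit, 1 to 6 per library. Per exon length SKI2 was the lowest of all members in ein5-1 ski2-3, at 0.122 CPM per kb.

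The exosome and related genes degrade RNA from the 3′ end. SOV (AT1G77680), an exonuclease that acts outside the exosome, had the highest counts of the group, with 3, 4 and 4 in Col-0, 7, 9 and 16 in ein5-1 ski2-3, 3, 2 and 3 in rdr6-11, and then 9, 6 and 9 in the triple mutant. Both genotypes without EIN5 and SKI2 were above both that keep them in raw counts, but SOV was not called with no filter. In CPM the levels were 1.84 ± 0.378, 3.26 ± 1.47, 0.939 ± 0.232 and 2.99 ± 0.682 in the same order. SOV failed the filter. Of all 7219 genes tested, 40.3% were higher in ein5-1 ski2-3 than in Col-0 with no overlap, in TMM CPM. MTR4 (AT1G59760), a nuclear helicase of the exosome, had 1, 7 and 2, then 9, 8 and 5, then 5, 4 and 8, and then 6, 3 and 3 counts. HEN2 (AT2G06990), a helicase for exosome substrates in the nucleoplasm, had 3, 3 and 2 in Col-0, 0, 3 and 4 in ein5-1 ski2-3, 3, 5 and 3 in rdr6-11, and then 8, 7 and 3 in the triple mutant, and its 1.65 in the triple mutant against ein5-1 ski2-3 was not called (SE 0.631, adjusted p = 0.0836).

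RRP44A (AT2G17510), a catalytic exosome exonuclease, had 2, 0 and 8 counts in Col-0, 4 in each ein5-1 ski2-3 library, 2, 6 and 1 in rdr6-11, and then 2, 1 and 1 in the triple mutant. The core subunits RRP41 (AT3G61620), RRP4 (AT1G03360), RRP45A (AT3G12990) and CER7 (AT3G60500), the last an RRP45 paralogue needed for wax synthesis, had 0 to 3 counts in every library. None of the 8 genes of this group was called with no filter.

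Among the nonsense-mediated decay genes, UPF1 moved the opposite way to the CAF1 deadenylases. UPF1 (AT5G47010), the helicase at the centre of the pathway, has 29 exons, the most of any member. Its counts were 14, 5 and 10 in Col-0, 7, 8 and 8 in ein5-1 ski2-3, 6, 7 and 9 in rdr6-11, and then 9, 17 and 18 in the triple mutant. Raw counts of Col-0 overlapped with every other genotype, while the triple mutant was above ein5-1 ski2-3 and touched rdr6-11 at 9. In CPM the level was 4.72 ± 1.99 in Col-0, 2.12 ± 0.046 in ein5-1 ski2-3, 2.57 ± 0.579 in rdr6-11 and 5.46 ± 1.79 in the triple mutant.

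UPF1 fell by 1.17 in ein5-1 ski2-3 against Col-0 on the TMM scale (SE 0.413, adjusted p = 0.0162 by edgeR). That call was lost when libraries were scaled by total counts (-0.36, adjusted p = 0.448), without replicate 1 of Col-0 (-0.83, adjusted p = 0.171), with no filter (-1.07, adjusted p = 0.0840) and by DESeq2 (-1.31, adjusted p = 0.0555). UPF1 rose by 1.36 in the triple mutant against ein5-1 ski2-3 (SE 0.374, adjusted p = 0.00303) and by 1.08 against rdr6-11 (SE 0.375, adjusted p = 0.0168). The second of these calls was lost without replicate 1 (0.95) or 2 (0.98) of rdr6-11 and without replicate 2 (0.98) or 3 (0.91) of the triple mutant, and with no filter (0.98, adjusted p = 0.103). Its interaction of 2.25 (SE 0.559, adjusted p = 0.000742) had the opposite sign to that of CAF1a and DCP5. UPF1 passed the filter through Col-0 and the triple mutant, the groups where it was high. With no filter, which did not select it, the interaction was 2.05 (SE 0.576, adjusted p = 0.00505 by edgeR). In that fit the rise in the triple mutant against ein5-1 ski2-3 was 1.28 (SE 0.387, adjusted p = 0.0145).

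UPF2 (AT2G39260), a UPF1 partner, had 2, 5 and 5, then 6, 6 and 3, then 4, 3 and 3, and then 5, 7 and 2 counts. UPF3 (AT1G33980), the link to the exon junction complex, had 2, 0 and 1, then 3, 5 and 7, then 0, 2 and 1, and then 4, 3 and 2 counts, and neither was called.

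Across comparisons the 7 members tested can be read against all genes. Against ein5-1 ski2-3, 1 member was higher in the triple mutant and 3 were lower, beside 14.4% and 27% of all genes. Against rdr6-11, 3 members were higher there (RH6, UPF1 and VCS) and 0 lower, beside 20.4% and 25.2%. Only RH6 was called there without replicate 1 of rdr6-11 or replicate 3 of the triple mutant, and only CAF1b without replicate 2 of the triple mutant, a count of 1 each time. With no filter the counts over the 33 members were 1 higher and 3 lower against ein5-1 ski2-3, beside 2.32% and 6.78% of all genes, and 0 higher and 0 lower by edgeR against rdr6-11, with 5 at an unadjusted p under 0.05, beside 3.1% and 6.06%. In that comparison DESeq2 called 0 too. No member was called with no filter in rdr6-11 against Col-0 (beside 5.09% and 2.44%) or in the triple mutant against Col-0 (beside 1.81% and 1.92%). For the interaction the same fit called UPF1 positive and CAF1a negative, beside 3.26% and 8.08%. These counts are not independent, since the comparisons share libraries.

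With decay intact, the loss of RDR6 gave no called member. In rdr6-11 against Col-0, edgeR called 0 of 7 members, with 1 at an unadjusted p under 0.05 (UPF1 at -0.89), and DESeq2 called 0, beside 21.3% of all genes higher and 15.3% lower. The count without replicate 2 of Col-0 was 1, again UPF1. For the triple mutant against Col-0, edgeR called 0 of 7 with 1 at an unadjusted p under 0.05 (RH6), and DESeq2 called 0, beside 8.78% and 9.52% of all genes. That count was 1, RH6, without replicate 2 of Col-0 or without replicate 3 of the triple mutant.

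The scaling of libraries set the common level against which members were called. The median log2 change of all genes in ein5-1 ski2-3 over Col-0 was 0.29 by TMM, 0.15 by RLE size factors and 1.10 by total counts, with 2202 genes higher and 1357 lower by TMM, 1818 and 1597 by RLE and 4448 and 255 by total counts. Relative to the TMM median, CAF1a stood at 1.73, CAF1b at 2.22, DCP5 at 0.84 and UPF1 at -1.46, differences that a change of scaling leaves in place by construction. By total counts 5 members were higher in ein5-1 ski2-3 and 0 lower, beside 61.6% and 3.53% of all genes, the additions being RH6 and VCS. For the triple mutant against ein5-1 ski2-3 the median was -0.21 by TMM and -0.64 by total counts, and relative to the first UPF1 stood at 1.57.

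For the other comparisons the split of calls over all genes moved with the scaling too. Between the triple mutant and ein5-1 ski2-3 it was 1037 higher and 1946 lower by TMM, 1290 and 1546 by RLE, and 274 and 3474 by total counts. In rdr6-11 against Col-0 it was 1539 and 1106 by TMM and 2364 and 435 by total counts, and in the triple mutant against Col-0 634 and 687 by TMM and 1576 and 250 by total counts. For the interaction 1435 genes were positive and 2286 negative by TMM. Members called by total counts in the triple mutant against Col-0 were RH6 and VCS, both higher, beside 21.8% of all genes higher and 3.46% lower.

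Levels can be compared between genes only per length. Per kb of exon, CAF1a had the highest level of the 33 in every genotype, with 3.57 CPM per kb in Col-0, 14.6 in ein5-1 ski2-3, 3.30 in rdr6-11 and 4.45 in the triple mutant. CAF1b ranked 3 in Col-0 with 1.36, 2 in ein5-1 ski2-3 with 8.24, 12 in rdr6-11 with 0.524 and 4 in the triple mutant with 1.51. DCP5 ranked 3 in ein5-1 ski2-3 with 3.90 and 2 in the other genotypes, with 1.83 to 2.12. The next members in ein5-1 ski2-3 were RH6 with 1.28, RH12 with 1.07, RH8 with 1.03 and VCS with 0.968, which lie within a narrow band.

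**Figure D4:**
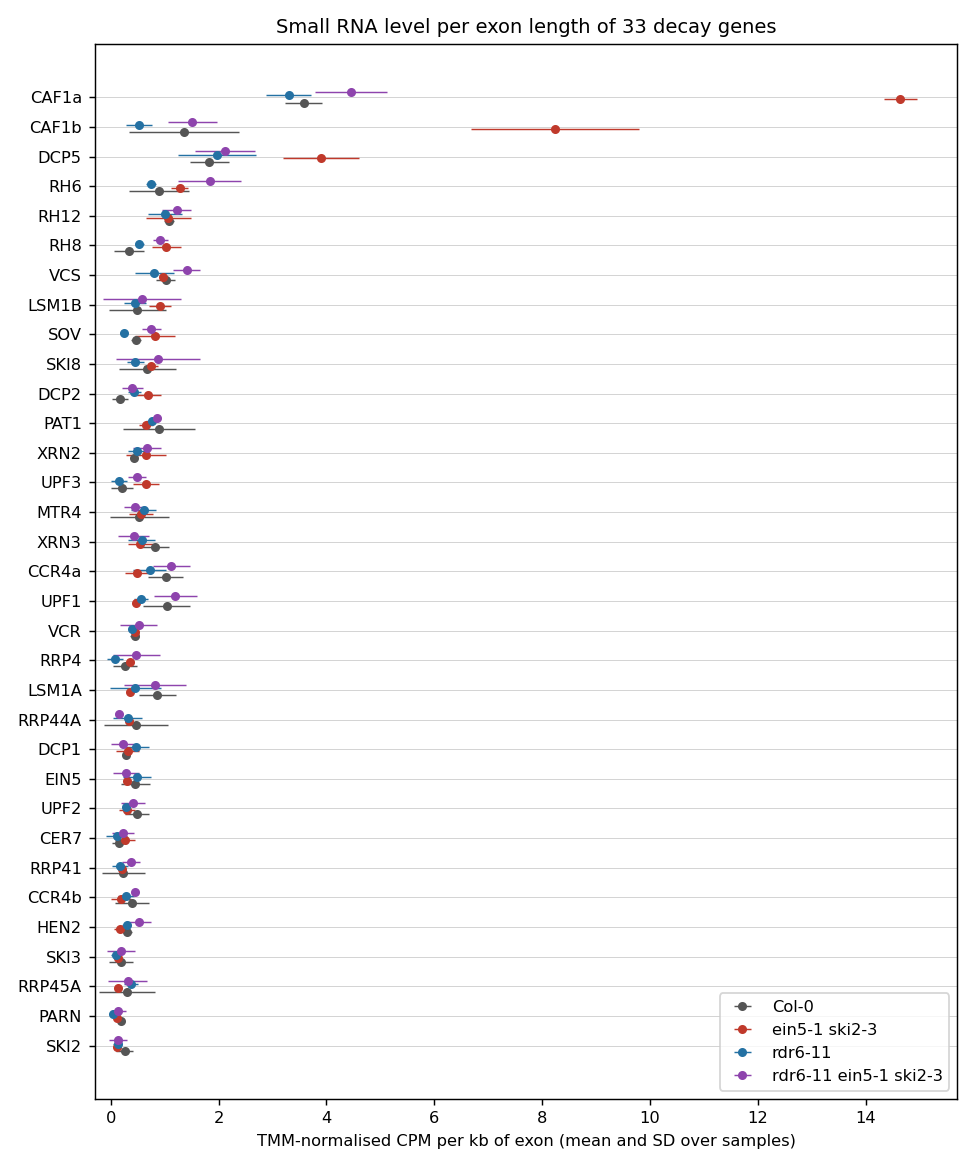
Small RNA level of each of the 33 decay genes in TMM-normalised CPM per kb of exon, by genotype, as mean and SD over samples. CAF1a, CAF1b and DCP5 stand apart in ein5-1 ski2-3 at 14.6, 8.24 and 3.90, and the other members lie at or below 1.28 there.

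CAF1a and CAF1b are also the only members without an intron. The 33 genes have 1 to 29 exons with a median of 10, and SKI8 with 2 is the only other member below 5. Among all tested protein-coding genes, the share called higher in ein5-1 ski2-3 than in Col-0 was 489 of 804 (60.8%) for genes of 1 exon, 507 of 1495 (33.9%) for 2 to 4 exons, 221 of 1080 (20.5%) for 5 to 9 and 101 of 829 (12.2%) for 10 or more. Of the members, 2 fall in the first class, 1 in the second, 10 in the third and 20 in the last. DCP5 with 8 exons was called higher, and UPF1 with 29 was called lower. This is a description across genes, which are not independent replicates, and the part of intron number in the changes of the members was not tested.

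**Figure D5:**
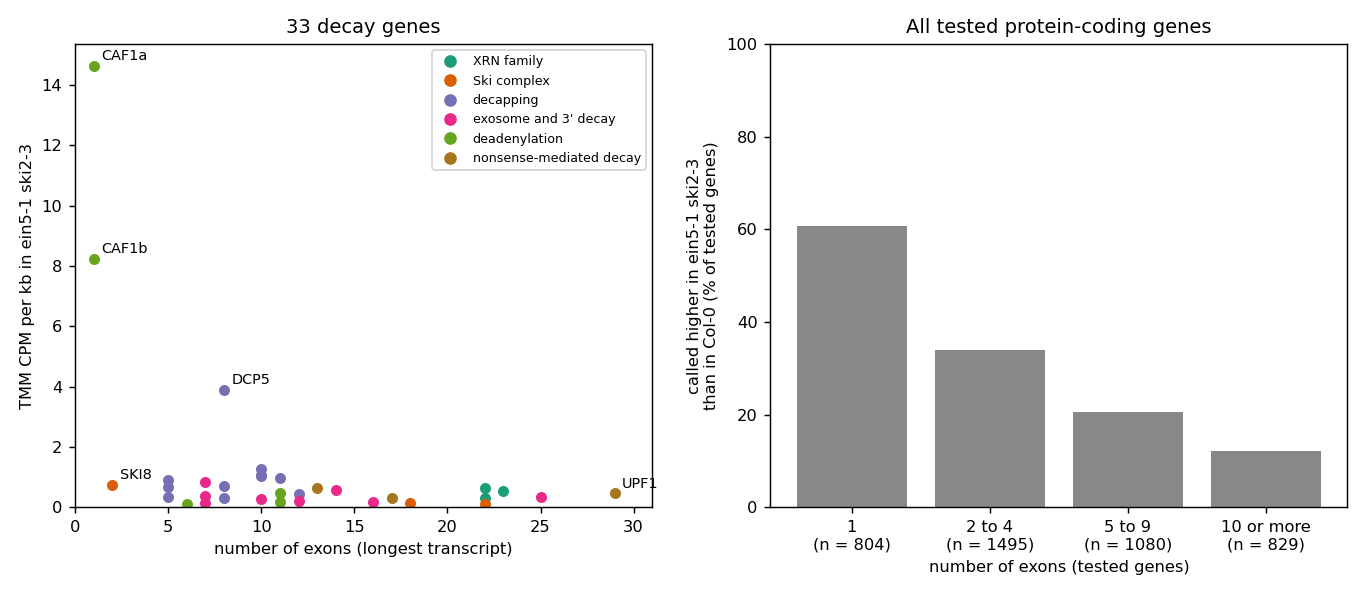
Left, small RNA level in ein5-1 ski2-3 in TMM-normalised CPM per kb of exon against the number of exons for the 33 decay genes, coloured by function. Right, percent of all tested protein-coding genes called higher in ein5-1 ski2-3 than in Col-0, by number of exons, which goes from 60.8% at 1 exon to 12.2% at 10 or more.

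Of 37 further genes of RNA decay, chosen by function and also with earlier results known, 10 passed the filter. By edgeR 0 of the 10 were called higher and 1 lower in ein5-1 ski2-3 against Col-0, beside 30.5% and 18.8% of all genes, with 3 at an unadjusted p under 0.05. RRP6L1, a nuclear exonuclease cofactor of the exosome, fell by 1.54 in ein5-1 ski2-3 against Col-0 (SE 0.326, adjusted p = 8.14e-05 by edgeR) and rose by 1.34 in the triple mutant against ein5-1 ski2-3 (adjusted p = 0.000583). LSM4, an LSM ring subunit, fell by 0.77 in that second comparison (adjusted p = 0.0263), which gives 1 of 10 in each direction beside 14.4% and 27%. In the triple mutant against rdr6-11, 4 of 10 rose, beside 20.4% of all genes. NOT1, the scaffold of the CCR4-NOT complex, rose by 1.15 (adjusted p = 0.00168 by edgeR). The poly(A)-binding protein genes PAB8, PAB4 and PAB2 rose by 0.84, 0.65 and 0.61 (adjusted p = 0.0229, 0.0349 and 0.0341). With no filter, 1 of the 37 was higher and 0 lower in that comparison, beside 3.1% and 6.06% of all genes.

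In rdr6-11 against Col-0, PAB4 fell by 0.81 and PAB2 fell by 0.72 (adjusted p = 0.0143 and 0.0208), 2 of 10 beside 15.3% of all genes. Their interactions were 1.07 and 1.12 and that of RRP6L1 1.46 (adjusted p = 0.0108, 0.00517 and 0.00338), the same sign as UPF1, 3 of 10 beside 19.9% of all genes. The median of the 10 in ein5-1 ski2-3 against Col-0 was -0.26, against 0.29 over all genes tested. With no filter, 0 of the 37 were called in rdr6-11 against Col-0, beside 5.09% of all genes higher and 2.44% lower. In the same fit 1 interaction was positive and 0 negative, beside 3.26% and 8.08%. The counts over the 10, which the filter selected, are a description.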

How the data were processed

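Reads were deposited as raw counts per gene model, 1 column for each of 12 libraries, with 3 biological replicates for each genotype per the labels. Per the file headers the table also has ratios of group means and p-values, plain and adjusted, computed by the authors. Tools named, without roles, in the submitters' processing notes are DESeq, Bowtie2, Bowtie and CASAVA 1.8.2, with build TAIR10; read length, strand and the handling of reads with several matches are not given in the sources used here, so siRNAs and fragments of longer RNA are counted together.

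Counts were fitted with edgeR 4.0.16 in R 4.3.3 on all genotypes: filterByExpr (minimum count 10, minimum total 15), TMM scaling, 2-sided quasi-likelihood F tests and Benjamini-Hochberg adjustment. The plan had 12 samples unless a chi-square check again found no difference beyond sampling noise between replicates 1 and 2 of ein5-1 ski2-3. The check found none over protein-coding genes, though over all genes the pair was above the noise. Those replicates were summed, which leaves 11 samples. The p-values measure the spread between these samples. Alternatives were RLE size factors, total counts, no filter, DESeq2 1.42.0, the compared groups alone, a replicate block and each library left out. Total counts of 2358724 to 2909767 leave most members at single-digit counts, which limits precision.

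The members and lists were chosen with earlier results of these data known. Members with at least 10 counts over the 12 libraries were to be named, which took in all of the 33 analysed; 1 further member is not reported here and enters no sum or count of members. Gene models and sequences are RefSeq's for TAIR10.1, matched by locus identifier. The files give no coordinates to compare with that build.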

Additional observations from a re-analysis of the deposited data

Results flagged for a closer look

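The change on losing RDR6 differed between ein5-1 ski2-3 and wild type, by edgeR's test of the interaction, for 3 of the 7 members tested, 1 positive and 2 negative, beside 19.9% and 31.7% of all genes. The difference was -1.59 on the log2 scale for CAF1a, -1.03 for DCP5 and 2.25 for UPF1. CAF1a stood at -1.70 in the triple mutant against ein5-1 ski2-3 and at -0.11 in rdr6-11 against Col-0, and its interaction was called in every alternative. DCP5 stood at -0.92 and 0.11, and its interaction was lost in 12 of 19 alternatives. UPF1 stood at 1.36 and -0.89, and its interaction was called in every alternative too. With no filter, which did not select UPF1, its interaction was 2.05 (adjusted p = 0.00505 by edgeR).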

How the results depend on the processing

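Low counts limit these results: 26 of 33 members failed the filter, ein5-1 ski2-3 has n = 2, and the group values rest on few counts. The calls of CAF1a and CAF1b in ein5-1 ski2-3 against Col-0 and in the triple mutant against ein5-1 ski2-3 held in all 20 alternatives, from 1.75 to 2.83 and from -2.14 to -1.46 for CAF1a and from 2.098 to 3.33 and from -2.82 to -1.99 for CAF1b. CAF1b passed the filter through the ein5-1 ski2-3 samples alone, so most of these alternatives share that selection. The fit with no filter, which did not select CAF1b, gave 2.61 and -2.46. Over 791 values of single genes, 713 kept direction and side of the threshold, 36 lost a call, 11 gained one and 31 changed sign. The cause of the changes below was not tested.

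Of members called, ein5-1 ski2-3 against Col-0 had 4, but 2 by DESeq2, 5 by total counts and 3 to 4 with a library left out (here and below, replicates 1 and 2 of ein5-1 ski2-3 were also left out together). The triple mutant against rdr6-11 had 3, but 0 with no filter (5 at an unadjusted p under 0.05), 0 by DESeq2, 1 with the compared groups alone and 1 to 4 with a library left out. The triple mutant against Col-0 had 0, but 2 by total counts and 0 to 1 with a library left out. Leaving out a library gave 0 to 1 in rdr6-11 against Col-0, 3 to 5 in the triple mutant against ein5-1 ski2-3 and 2 to 3 for the interaction. Same-numbered libraries did not pair (1 of 18 correlations above 0.1, range -0.159 to 0.127), and with a replicate block the counts were 4, 0, 4, 3, 0 and 3, as without it.

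The log2 ratio of the summed level was 1.36 in ein5-1 ski2-3 over Col-0, but 0.56 in TMM CPM or as a share of protein-coding counts and 1.11 without CAF1a. For rdr6-11 over Col-0 it was 0.19, but -0.28 in TMM CPM. For the triple mutant over ein5-1 ski2-3 it was -0.74, but -0.32 in TMM CPM, -0.15 as a share and -0.49 without CAF1a. Over rdr6-11 it was 0.44, but 0.28 as a share, and over Col-0 0.62, but 0.24 in TMM CPM and 0.41 as a share.

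Signs changed for values that were not called. By total counts, VCS stood at 0.73 in ein5-1 ski2-3 against Col-0 (called). In rdr6-11 against Col-0 RH6 stood at 0.25, VCS at 0.14, CAF1a and RH12 at 0.35. In the triple mutant against ein5-1 ski2-3 RH12 stood at -0.35, and for the interaction RH6 at -0.14, VCS at -0.032 and RH12 at -0.70. With no filter, VCS stood at 0.020 in ein5-1 ski2-3 against Col-0, CAF1a at 0.0093 and RH12 at 0.012 in rdr6-11 against Col-0, DCP5 at -0.011 in the triple mutant against rdr6-11 and RH12 at -0.011 for the interaction. RH12 in ein5-1 ski2-3 against Col-0 stood at -0.049 by RLE and -0.11 by DESeq2. With a library left out, the range in ein5-1 ski2-3 against Col-0 was -0.33 to 0.074 for VCS and -0.12 to 0.13 for RH12, or -0.69 without replicates 1 and 2 of ein5-1 ski2-3 together. In rdr6-11 against Col-0 it was -0.028 to 0.40 for DCP5, -0.45 to 0.38 for RH6 and -0.33 to 0.14 for RH12. In the triple mutant it was -0.19 to 0.26 for DCP5 against rdr6-11, and -0.0053 to 0.38 for DCP5, -0.21 to 0.95 for CAF1b and -0.060 to 0.52 for UPF1 against Col-0. RH12 failed the filter in some of these fits.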
